A study of Sus scrofa with 40 samples.

Results

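Genes that mark leukocytes and tissue macrophages were followed through 4 pork cuts: PTPRC, CSF1R, ITGAM, CD163, CD68, MRC1, CD14 and TYROBP. They were chosen by name, each as the single line of the deposited count table that carries its symbol, which gave 8 genes of 21280. The study sequenced messenger RNA from muscle of male Chalu black pigs, all sired by 1 boar and raised in shared housing on shared feed, and compared the cuts with each other. With 10 libraries each and 40 in all, the cuts were longissimus dorsi (LDM, a back muscle), hamstring (HM, from the leg), trapezius (TM, from neck and shoulder) and pork belly (PB). The ages of the pigs are not given in the labels. Every pig was fasted, stunned and bled at slaughter, no treatment differed between the cuts, and muscle was taken from the left side clear of fascia. Each sample is whole tissue, so the cells that gave the reads of the 8 genes, and their place in the muscle, cannot be told. Skeletal actin ACTA1, a defining muscle fibre gene, stood between 31693 and 95051 CPM (read counts scaled to a common library total) in all 40 libraries.

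Macrophages live between muscle fibres in healthy muscle, where they clear debris, take up haemoglobin and iron and support repair, and monocytes from blood join them after injury. CSF1R is the receptor through which the growth factors CSF1 and IL34 keep these cells alive. PTPRC, the CD45 phosphatase, lies on all nucleated blood-derived cells and sets the threshold of their antigen receptor signals. ITGAM is the alpha chain of an adhesion receptor of myeloid cells, CD163, MRC1 and CD68 belong to the scavenger and lectin receptors of macrophages, CD14 presents bacterial lipopolysaccharide to toll-like receptor 4, and TYROBP is the DAP12 adaptor that passes on signals of activating receptors.

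Total counts per library ran from 12305913 to 17735722, so 1 count was worth between 0.0564 and 0.0813 CPM. Values below are CPM after TMM scaling (scaled CPM), unless given as FPKM, which also divides by gene length. The labels number the libraries 1 to 10 in each cut and do not say that a number marks a pig, so p-values measure only the spread between these libraries, which may be technical in part. Same-numbered libraries of different cuts were more alike than others, and fits with the number as a block changed some calls. PB1 is titled and described as belly although its tissue field names the longissimus, and it was kept in PB. One belly library, PB8, stood apart in nearly all of the 8 genes, and results that rest on it are given with and without it. The filter on low counts kept 8 of the 8 genes.

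The gene models decide what each value can say. On the Sscrofa11.1 build PTPRC (ENSSSCG00000010908) covers chromosome 10 from 21466373 to 21764560 on the plus strand, and the RefSeq PTPRC gene fills 39.8% of that span, so reads of neighbouring transcripts could be counted with it. ITGAM (ENSSSCG00000007754) covers chromosome 3 from 17136161 to 17273657 on the minus strand and holds 100% of the RefSeq genes ITGAD, ITGAX and ITGAM, so its reads are summed over these 3 integrin genes and a noncoding locus between them. MRC1 (ENSSSCG00000011038, chromosome 10 from 44107072 to 44244410, plus strand) also takes in 6.3% of SLC39A12. The other models each hold 1 RefSeq gene: CSF1R (ENSSSCG00000014441, chromosome 2 from 151102138 to 151147634, minus strand), CD14 (ENSSSCG00000014369, chromosome 2 from 142346358 to 142349581, minus strand) and TYROBP (ENSSSCG00000002919, chromosome 6 from 45309197 to 45312537, minus strand). CD163 (ENSSSCG00000033146) covers chromosome 5 from 63300146 to 63334498 and CD68 (ENSSSCG00000017956) chromosome 12 from 52874785 to 52877695, both on the plus strand. No source used here states how the counting treated strand, so reads of antisense partners cannot be told apart from those of the genes.

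Per length, the macrophage growth factor receptor and the lysosomal protein CD68 were the most abundant of the 8 and the CD45 phosphatase and the integrin chain the least. Median FPKM over the 40 libraries was 4.81 for CSF1R, 4.76 for CD68, 3.18 for TYROBP, 3.15 for CD163, 1.8 for CD14, 1.19 for MRC1, 0.419 for PTPRC and 0.335 for ITGAM. Several neighbours in this order changed places from library to library: CSF1R was above CD68 in 21 of 40 libraries, CD68 above TYROBP in 25, TYROBP above CD163 in 24 and PTPRC above ITGAM in 28. The steps from MRC1 to PTPRC, with MRC1 higher in 37 of 40, from CD163 to CD14, in 33, and from CD14 to MRC1, in 31, were the steadier ones. FPKM of ITGAM and PTPRC is divided by the length of models that span more than the gene itself. The RefSeq gene also fills only 48.0% of the CD14 model and 61.9% of the CSF1R model, so the order can be affected for these 2 genes as well.

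With all 40 libraries edgeR called PTPRC, CSF1R and ITGAM higher in the belly than in the back, CSF1R also in the shoulder than in the back, and PTPRC in the belly than in the shoulder. The belly calls did not hold without PB8, and by median ITGAM was lower in the belly than in the back (3.97 and 4.11 scaled CPM). Over the 4 cuts together 1 of 8 passed at an adjusted p under 0.05 in edgeR's F test, PTPRC, where 57.2% of the 11713 genes tested passed. In PB over LDM 3 rose, PTPRC, CSF1R and ITGAM, and 0 fell, with 41.7% of all genes called in either direction and 20.5% called higher. In PB over TM 1 rose, PTPRC (23.1% of all genes called, 13.4% higher), and in TM over LDM 1 rose, CSF1R (24.7%, 11.3% higher). In a bulk sample more cells of a type and more RNA per cell cannot be told apart.

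The remaining pairs gave no call in edgeR with cut as the single factor. In HM over LDM 0 of 8 passed the adjusted threshold and 2 had an unadjusted p under 0.05, with 0 by DESeq2 and 3 by limma-voom with quality weights, where 32.5% of all genes were called. In PB over HM it was 0 of 8, 0 at an unadjusted p under 0.05, 0 by DESeq2 and 2 by limma-voom (27.6% of all genes called). In TM over HM it was 0 of 8, also unadjusted and by both other tools, in a pair where 0.768% of all genes were called.

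The belly calls turned on PB8. Without that library PTPRC, CSF1R and ITGAM no longer passed in PB over LDM, and CD68 alone passed, lower in PB (1 of 8, against 40.1% of all genes called and 20.9% called lower). CD68 was also the 1 of 8 that passed over the 4 cuts together (57.5% of all genes) and in PB over HM, where it fell (29.6%, 16.1% lower). In PB over TM edgeR called 0 of 8 without PB8, with 1 at an unadjusted p under 0.05 (20.9%), and in TM over HM 0 of 8, with 1 unadjusted (1.07%). In HM over LDM 3 rose without PB8, CSF1R, ITGAM and CD14 (34.4% of all genes called, 17.9% higher), and in TM over LDM CSF1R passed again (26.2%, 12.3% higher). The median log2 difference over the 8 genes in PB over LDM was 0.80 with PB8 and 0.29 without it, beside -0.02 and -0.04 over all genes tested. In HM over LDM it was 0.50 both ways, beside 0.08.

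**Figure D1:**
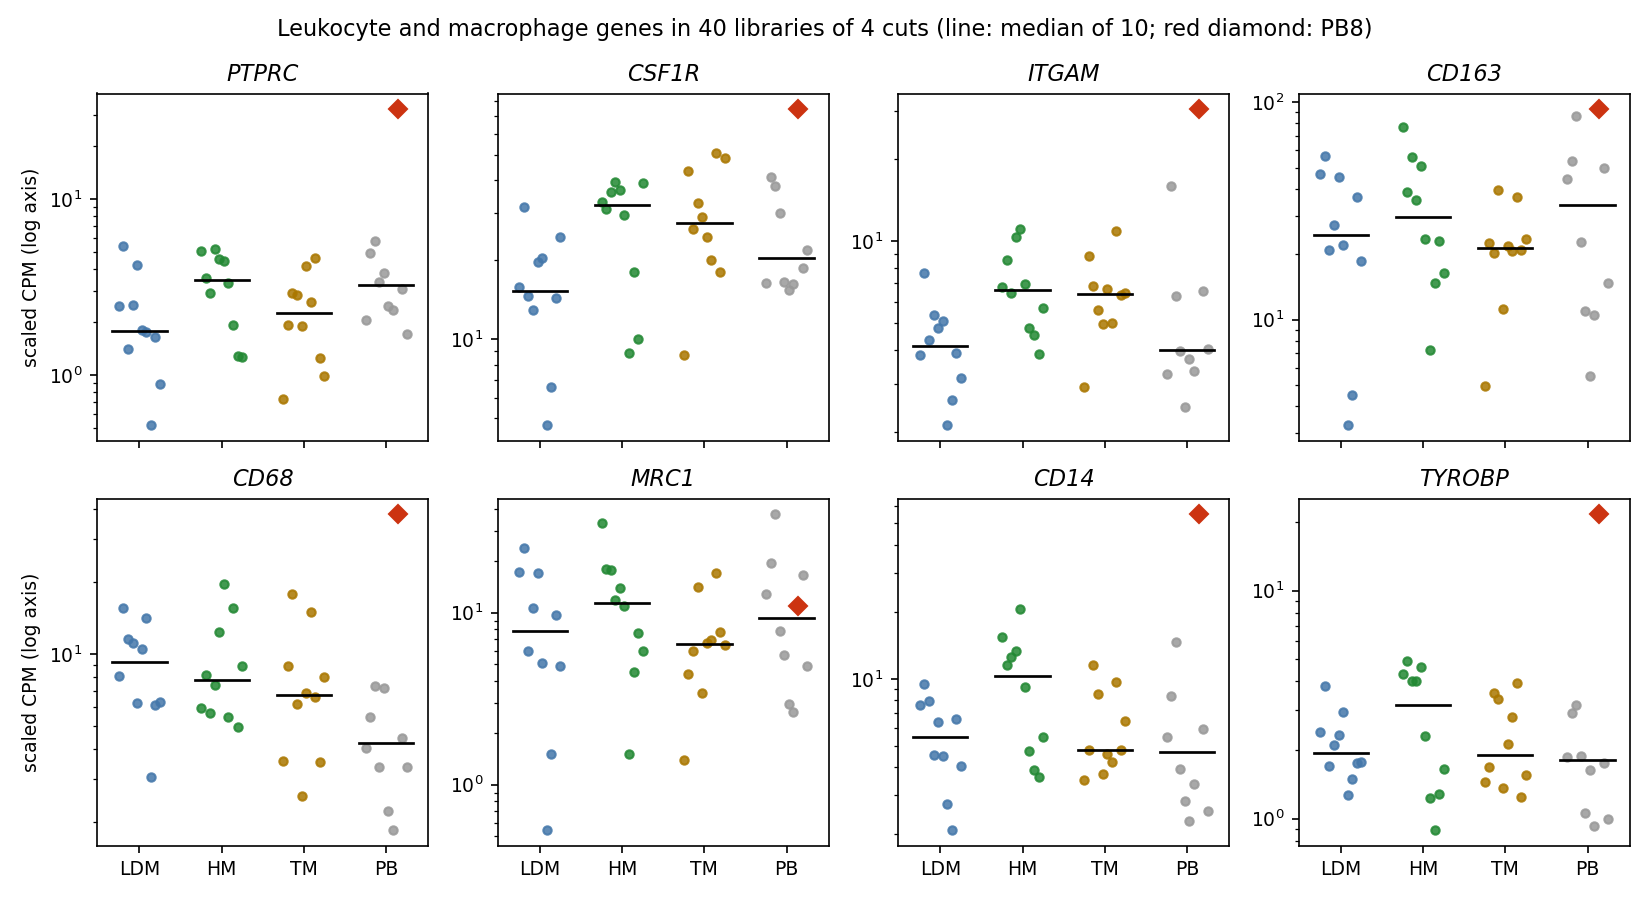
Scaled CPM (log axis) of the 8 genes in each library, by cut, with the median of the 10 libraries as a line and PB8 as a red diamond. PB8 is the highest of all 40 libraries in 7 panels and stands among the other libraries in that of MRC1.

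PTPRC, which removes phosphates from signalling proteins of leukocytes, was read at low counts outside PB8. Scaled CPM ran from 0.521 over a median of 1.77 to 5.42 in LDM, from 1.26 over 3.45 to 5.2 in HM and from 0.727 over 2.26 to 4.59 in TM. In PB it ran from 1.7 over 3.23 to 32.3, and the highest of the other 9 PB libraries was 5.73. The 4 cuts overlapped, with PB8 far above and PB3 just above the libraries of the other cuts. PTPRC rose in PB over LDM by 1.44 ± 0.45 on the log2 scale (SE, edgeR adjusted p = 0.00983) and in PB over TM by 1.36 ± 0.45 (adjusted p = 0.0237). Without PB8 these were 0.53 ± 0.35 (adjusted p = 0.232) and 0.45 ± 0.34 (adjusted p = 0.364), and the F test gave an adjusted p of 0.279 in place of 0.014. With limma-voom and quality weights over all 40 libraries they were 0.66 (adjusted p = 0.132) and 0.57 (adjusted p = 0.232). In edgeR with the library number as a block they were 1.01 (adjusted p = 0.044) and 1.03 (adjusted p = 0.0512). The F test with that block gave an adjusted p of 0.0607. By median, HM was the highest of the cuts and LDM the lowest, and HM over LDM was 0.56 ± 0.45 (adjusted p = 0.343).

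The precision of these low values was limited by counting. The lowest PTPRC value, in LDM8, rested on 8 counts and the highest, in PB8, on 392 counts, for which the exact 95% Poisson interval is 354 to 433. Such intervals cover counting error only.

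CSF1R was lowest in the back. It ran from 4.73 over a median of 15.2 to 31.6 scaled CPM in LDM, from 8.89 over 32.2 to 39.4 in HM and from 8.72 over 27.6 to 50.9 in TM. In PB it ran from 15.3 over 20.2 to 74.3, the value of PB8, with 41.2 as the next highest. The cuts overlapped, but 7 HM libraries lay close together near the top of the HM range while 3 lay far below them. CSF1R rose in TM over LDM by 0.87 ± 0.33 (edgeR adjusted p = 0.0468) and in PB over LDM by 0.81 ± 0.33 (adjusted p = 0.0454). HM over LDM was 0.77 ± 0.33 (adjusted p = 0.066), and 0.77 ± 0.30 without PB8, which passed (adjusted p = 0.0457). PB over LDM without PB8 was 0.53 ± 0.31 and did not pass (adjusted p = 0.179). By limma-voom over all 40 libraries PB over LDM was 0.72 (adjusted p = 0.0666) and HM over LDM 1.01 (adjusted p = 0.0116). In edgeR with the library number as a block both were 0.76 and passed (adjusted p = 0.0289 and 0.0317).

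Both CSF1R calls with cut as the single factor lay close to the threshold. TM over LDM was lost when any 1 of 18 of the 40 libraries was left out, with adjusted p between 0.0207 and 0.102 and a log2 difference between 0.75 and 1.03 over the 40 fits. These 18 were HM1, HM2, HM3, PB4, TM2, TM3, TM4, TM5, TM8, TM10 and all LDM libraries but LDM2 and LDM10. TM over LDM passed by limma-voom over all 40 libraries (1.03, adjusted p = 0.0124). It also passed in edgeR with the number as a block (0.84, adjusted p = 0.0233) and without PB8 (0.87, adjusted p = 0.0307). Of 13 alternatives 1 changed this call, the edgeR fit with no filter (adjusted p = 0.0654). PB over LDM was lost without any 1 of PB8, PB2, PB3, PB4 and 5 LDM libraries (numbers 3, 4, 7, 8 and 9), with adjusted p between 0.0187 and 0.179 and a log2 difference between 0.53 and 0.96 over the 40 fits.

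The 2 ligands of CSF1R did not follow a single pattern. CSF1, the broader macrophage growth factor, ran from 12.9 over a median of 22 to 42.2 scaled CPM in LDM, from 22.4 over 37.1 to 302 in HM, from 15 over 36.5 to 158 in TM and from 12 over 31.6 to 226 in PB. Its highest values were those of HM5 and PB8, and every HM library lay above the LDM median. CSF1 rose in HM over LDM by 1.65 ± 0.52 (edgeR adjusted p = 0.0143) and in PB over LDM by 1.60 ± 0.52 (adjusted p = 0.0134). Without PB8 the latter was 1.18 (adjusted p = 0.0587). IL34, the ligand better known from skin and brain, fell in PB over LDM (-1.37 ± 0.36, adjusted p = 0.00209), from a median of 3.35 scaled CPM in LDM to 1.31 in PB, and this held without PB8 (-1.39, adjusted p = 0.00302). Of the 9 tested genes of a list around CSF1R signalling, 3 rose (CSF1, CSF2RB and SPI1) and 2 fell (IL34 and GRB2) in PB over LDM with PB8, and without it 0 rose and 2 fell, in a pair where 20.5% of all genes were called higher and 21.2% lower.

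ITGAM, read together with 2 neighbouring integrin genes, was higher in HM and TM than in LDM by median. It ran from 2.12 over 4.11 to 7.66 scaled CPM in LDM, from 3.84 over 6.64 to 11.1 in HM, from 2.91 over 6.4 to 10.9 in TM and from 2.47 over 3.97 to 30.5 in PB. The belly median was the lowest of the 4 while its mean was the highest, since PB8 and PB2, at 30.5 and 16, lay above every library of the other cuts. ITGAM rose in PB over LDM by 0.90 ± 0.34 (edgeR adjusted p = 0.0298), which was lost without PB8 (0.37 ± 0.28, adjusted p = 0.3), without PB2 (0.73, adjusted p = 0.0824) and without LDM10 (0.86, adjusted p = 0.0507). HM over LDM was 0.69 ± 0.34 (adjusted p = 0.111), and 0.69 ± 0.27 without PB8 (adjusted p = 0.0426). By limma-voom over all 40 libraries PB over LDM was 0.37 (adjusted p = 0.315) and HM over LDM 0.77 (adjusted p = 0.0261). In edgeR with the library number as a block these were 0.61 (adjusted p = 0.0951) and 0.74 (adjusted p = 0.0453). ITGB2, the beta chain that pairs with ITGAM, had median scaled CPM of 5.37 in HM, 4.26 in TM, 3.63 in LDM and 3.33 in PB, and HM over LDM was 0.59 ± 0.42 (adjusted p = 0.281). ICAM1, the ligand of these integrins on vessel walls, rose in PB, HM and TM over LDM, by 0.98, 0.89 and 0.77 (adjusted p = 0.00663, 0.0168 and 0.0481).

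The 2 endocytic receptors of resident macrophages, CD163 and MRC1, varied widely within every cut and did not pass in any pair of cuts. CD163, which takes up haemoglobin bound to haptoglobin, ran from 3.28 over a median of 24.5 to 56.5 scaled CPM in LDM, from 7.25 over 29.5 to 76.8 in HM, from 4.95 over 21.4 to 39.3 in TM and from 5.5 over 33.6 to 92.8 in PB. MRC1, the mannose receptor, ran from 0.546 over 7.81 to 23.9 in LDM, from 1.5 over 11.4 to 33.4 in HM, from 1.39 over 6.58 to 17.1 in TM and from 2.64 over 9.34 to 37.3 in PB. The ranges of the cuts lay almost on top of each other, and the highest library exceeded the lowest 28.3-fold for CD163 and 68.3-fold for MRC1. Without PB8 these were 26.5-fold and 68.3-fold, while PTPRC fell from 62-fold to 11-fold. The largest differences were PB over TM for CD163, 0.82 ± 0.46 (edgeR adjusted p = 0.201), and TM over HM for MRC1, -0.75 ± 0.50 (adjusted p = 0.566). These 2 genes had standard errors of 0.46 and 0.50, wider than the 0.33 of CSF1R, so differences of the size seen for CSF1R could not be resolved for them. The enzyme HMOX1, which breaks down the haem that CD163 brings in, fell in PB over HM only without PB8 (-1.37, adjusted p = 0.0247, and -0.87, adjusted p = 0.175, with it).

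CD68, a glycoprotein of the lysosomes of macrophages, was by median highest in the back and lowest in the belly. It ran from 3.06 over a median of 9.3 to 15.5 scaled CPM in LDM, from 4.94 over 7.82 to 19.6 in HM, from 2.55 over 6.75 to 17.8 in TM and from 1.85 over 4.26 to 38.1 in PB. Apart from PB8 no belly library was above 7.34, while the lower libraries of the other cuts overlapped the belly range. With PB8, PB over LDM was -0.26 ± 0.42 (edgeR adjusted p = 0.648) and PB over HM -0.28 ± 0.41 (adjusted p = 0.655). Without it CD68 fell in PB over LDM (-1.08 ± 0.33, adjusted p = 0.00933, means of 4.38 and 9.25 scaled CPM) and over HM (-1.10 ± 0.33, adjusted p = 0.0116), and PB over TM was -0.85 ± 0.33 (adjusted p = 0.0623). By limma-voom with quality weights, which gives deviating libraries less weight, CD68 fell with all 40 libraries kept, in PB over LDM (-1.06, adjusted p = 0.00813) and over HM (-0.97, adjusted p = 0.0203).

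CD14, the lipopolysaccharide coreceptor, was highest in the hamstring by median. It ran from 2.09 over 5.46 to 9.51 scaled CPM in LDM, from 3.6 over 10.4 to 20.7 in HM, from 3.5 over 4.8 to 11.5 in TM and from 2.3 over 4.7 to 54.9 in PB. The HM libraries overlapped the other cuts at their lower end. HM over LDM was 0.84 ± 0.44 (edgeR adjusted p = 0.141) and passed without PB8, at 0.84 ± 0.33 (adjusted p = 0.0454). By limma-voom over all 40 libraries it was 0.87 (adjusted p = 0.0336), and PB over HM, at 0.05 in edgeR, was -0.93 (adjusted p = 0.0273). In edgeR without PB8, PB over HM was -0.87 ± 0.34 (adjusted p = 0.0521). Its partner TLR4 rose in HM over LDM by 1.42 ± 0.37 (adjusted p = 0.00319), from a median of 2.59 to 7.59, and in PB over LDM by 1.24 ± 0.37 (adjusted p = 0.00699), the latter not without PB8 (0.67, adjusted p = 0.0782). LY96, the secreted cofactor of TLR4, rose in TM over LDM by 0.84 ± 0.32 (adjusted p = 0.0474). Of the 8 tested genes of the CD14 and toll-like receptor list, 2 rose in PB over LDM and 1 in HM over LDM, beside 20.5% and 16.5% of all genes called higher, and 0 fell in either.

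TYROBP, the signalling adaptor, passed in no pair. It ran from 1.27 over 1.94 to 3.83 scaled CPM in LDM, from 0.893 over 3.15 to 4.93 in HM, from 1.25 over 1.9 to 3.93 in TM and from 0.926 over 1.81 to 21.6 in PB. In HM 5 libraries lay above every LDM and TM library, and the other 5 lay within or below those ranges. PB over LDM was 0.80 ± 0.43 with PB8 (edgeR adjusted p = 0.139) and -0.26 ± 0.31 without it (adjusted p = 0.532), so the sign of the difference depended on that library. FCER1G, the related Fc receptor adaptor, had medians of 4, 6.27, 4.66 and 3.19 in LDM, HM, TM and PB and did not pass with PB8, and fell in PB over HM without it (-0.81, adjusted p = 0.0269). Of 10 tested genes of DAP12 and Fc receptor signalling, 2 rose in PB over LDM, beside 20.5% of all genes called higher, and 0 without PB8.

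**Figure D2:**
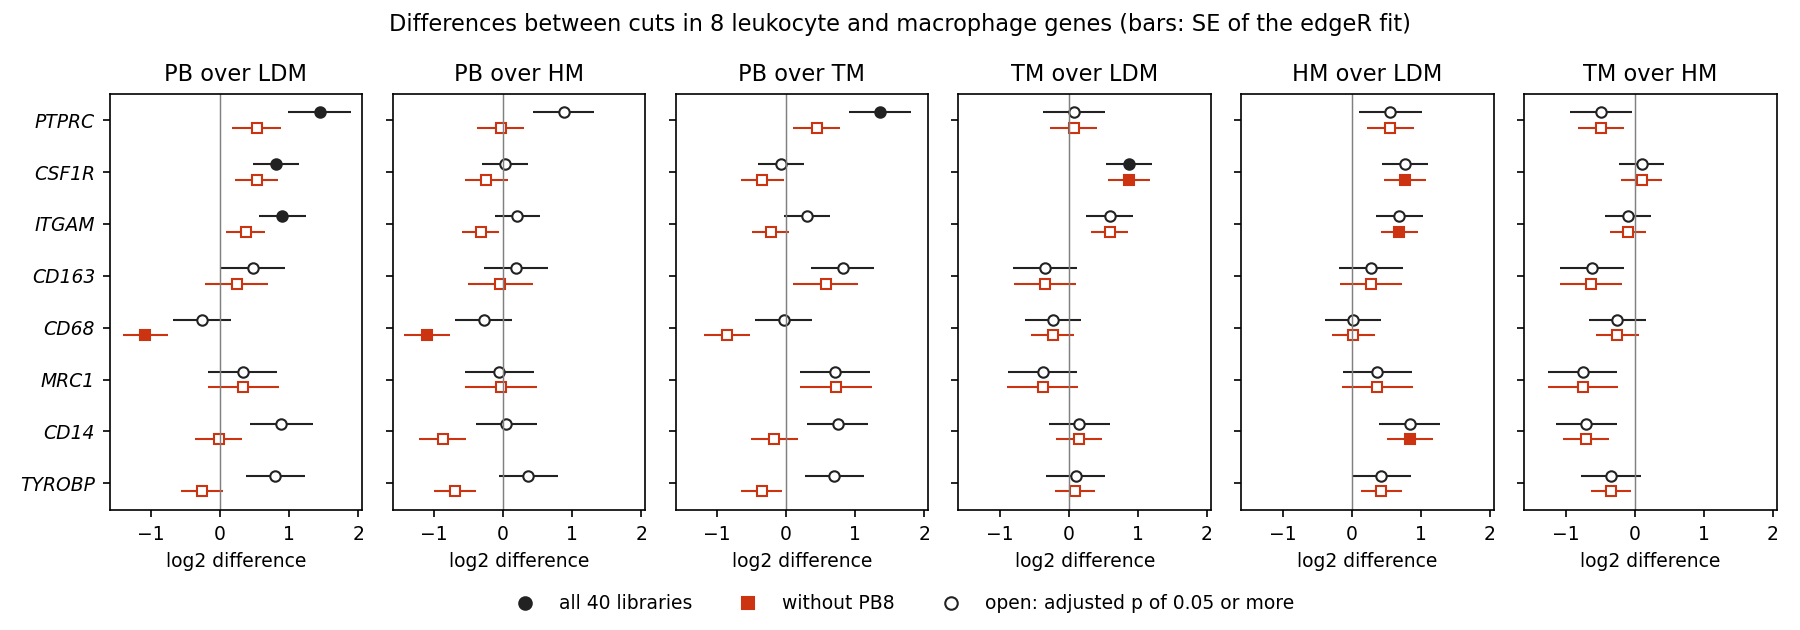
Log2 difference of each gene in the 6 pairs of cuts with its SE, over all 40 libraries (black circles) and without PB8 (red squares), filled where the adjusted p is under 0.05. Leaving out PB8 moves the belly comparisons of 7 genes downward, for PTPRC in PB over LDM from 1.44 to 0.53, and leaves MRC1 in place.

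Lists of other cell types were read beside these results. Of 13 other pan-leukocyte genes 2 rose in PB over LDM, LCP1 and CORO1A, both actin-binding proteins, and 0 without PB8, in a pair where 20.5% of all genes tested were called higher. The first 3 of that list, CD53, LAPTM5 and ITGB2, stood in HM over LDM at 0.66, 0.50 and 0.59 and did not pass (adjusted p = 0.293, 0.238 and 0.281). Of 17 other macrophage genes 2 rose, CD86 and SPI1, and 1 fell, FOLR2, in PB over LDM, and CD86 rose and FOLR2 fell without PB8. The complement genes C1QA, C1QB and C1QC were at -0.45, -0.24 and -0.35 there and did not pass (adjusted p = 0.252, 0.579 and 0.407).

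Vessel genes rose in TM and HM over LDM, the pairs in which CSF1R stood at 0.87 and 0.77. Of 9 endothelial genes 8 rose in TM over LDM and 8 in HM over LDM, beside 11.3% and 16.5% of all genes called higher, and 2 in PB over LDM, beside 20.5%. PECAM1, CDH5 and VWF rose in HM over LDM by 0.86, 1.07 and 0.75 (adjusted p = 0.00188, 1.86e-05 and 0.00095). The part of these cells in the differences of the leukocyte genes was not tested. Of 11 fibroblast and matrix genes 5 rose in PB over LDM, 3 in HM over LDM and 2 in TM over LDM, beside 20.5%, 16.5% and 11.3% of all genes called higher, and their part was not tested either. The T cell marker CD3E was low, with medians between 0.208 and 0.482 scaled CPM in the 4 cuts. The red cell gene HBB was between 0 and 0.21 in all libraries, and the neutrophil gene S100A8 between 0 and 0.825, its highest in PB8.

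A library was described singly where at least 3 of the 8 genes were over 3 times the median of its own cut. This held for 1 of 40 libraries, PB8, with 6 genes over that limit. Against the other 9 PB libraries, PB8 held CD14 at 54.9 scaled CPM beside a median of 3.94 (13.9-fold), TYROBP at 21.6 beside 1.75 (12.3-fold) and PTPRC at 32.3 beside 3.07 (10.5-fold). CD68 was at 38.1 beside 4.07 (9.36-fold) and ITGAM at 30.5 beside 3.94 (7.76-fold). CD163, at 92.8 beside 22.7 (4.09-fold), and CSF1R, at 74.3 beside 18.6 (4-fold), were raised least of the 7 genes that ranked first among all 40 libraries by scaled CPM. The first rank of CD163 did not hold by FPKM, which has no TMM scaling: 9.81 in PB8 and 10.2 in both PB3 and HM1. MRC1, at 10.9 beside 7.79 (1.4-fold), ranked 15 of 40. Since PB8 was picked by these values they are a description. By scaled CPM 7 of 8 were over 3 times the median of the other 9 PB libraries, where 7.7% of all genes tested were. Also, 7 of 8 were above every other PB library, where 21.9% were. Against the median of its whole cut, PB8 included, CD163 was at 2.77 times. For values of PB8 below, the belly median is that of the other 9 PB libraries.

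**Figure D3:**
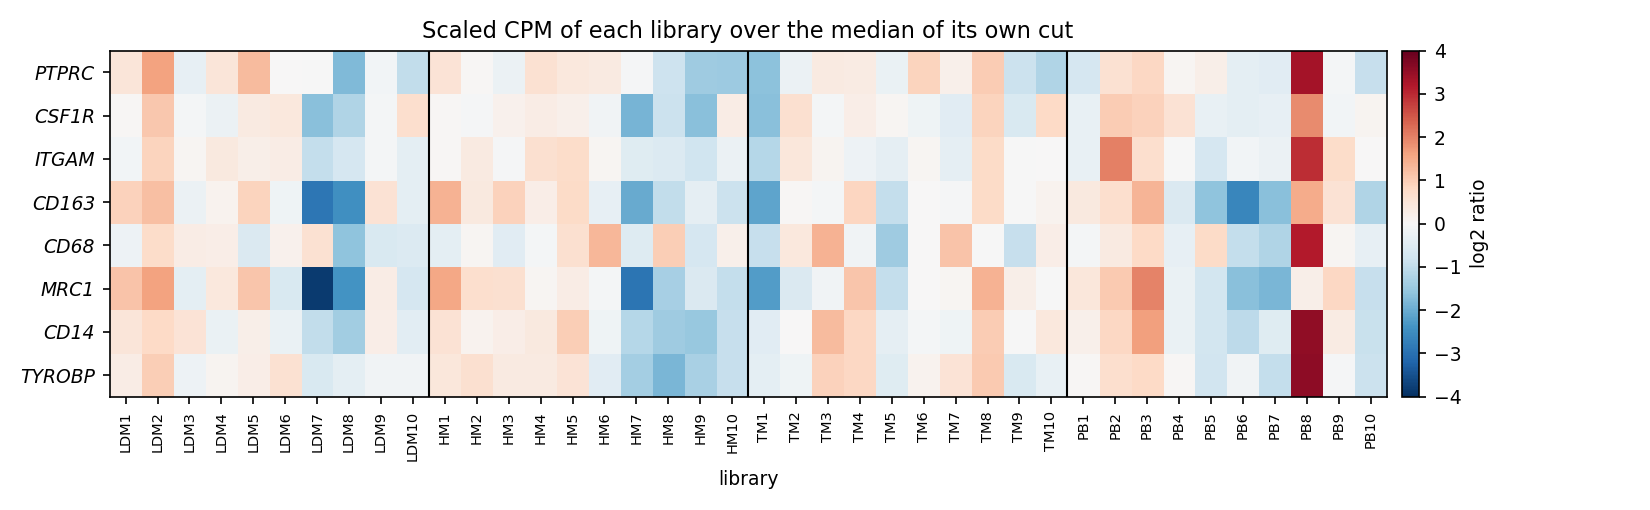
Log2 ratio of each library to the median of its own cut for the 8 genes, with libraries in order of cut and number. PB8 is high in every gene but MRC1, and CD163 and MRC1 are low together in LDM7, LDM8, HM7, TM1, PB6 and PB7.

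The FPKM of the 8 genes summed to 94.1 in PB8 and to between 8.39 and 43.8 in the other 39 libraries. CD163 and MRC1 together made up 11.8% of that sum in PB8, against a median of 20% and a range of 3.46% to 41.6% elsewhere. So PB8 was outside the range of the others in its sum and inside it in this share.

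Other genes of these cell types were split in PB8 as well. All 13 pan-leukocyte genes tested were over 3 times the median of the other PB libraries, with CD53 12.9-fold, LAPTM5 8.24-fold and ITGB2 10-fold, and 10 of 10 DAP12 and Fc receptor genes were, with FCER1G 10.2-fold. Of 17 other macrophage genes 8 were. The first 3 of that list, complement genes that resident macrophages make, were low: C1QA stood at 0.395 times the belly median and ranked 39 of 40, C1QC at 0.43 times and ranked 38, and C1QB at 0.571 times and ranked 34. Named after their values were seen, LYVE1 and STAB1, receptors of resident macrophages and of vessel lining, ranked 40 and 36, while F13A1, a clotting factor subunit of monocytes and macrophages, was 9.81-fold higher and ranked first. MERTK of the same list was 6.51-fold higher and also ranked first, and FOLR2, VSIG4 and SIGLEC1 stood at 0.697, 0.847 and 1.26 times the belly median. So the genes of this list did not share a direction.

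Genes known from blood monocytes, neutrophils and lymphocytes were high in part. CCR2, the receptor that draws monocytes out of the blood, was at 21.9 scaled CPM beside a belly median of 0.63 (34.7-fold). CSF3R, a receptor of neutrophils and monocytes, was at 21.5 beside 1.29 (16.7-fold). Of 4 tested neutrophil genes 3 were over 3 times the belly median, with a sum of 29.7 scaled CPM beside 0.91 to 7.88 in the other 39 libraries. Of 3 tested monocyte genes 1 was, with a sum of 156 beside 67 to 1080. That sum was mostly NR4A1, at 132 in PB8 and 1073 in LDM10, so it does not describe the other genes. Of the monocyte genes below the count filter, CX3CR1, S100A4 and CLEC7A were highest of the 40 libraries in PB8, on 15, 30 and 30 counts, while PLAC8 ranked 14. The neutrophil and monocyte proteins S100A8, S100A9 and S100A12 were each highest of the 40 libraries in PB8 but rested on 10, 25 and 40 counts, and the granule genes MPO, MMP8, LTF and PGLYRP1 were at 0 counts, MPO also in every other PB library. Lymphocyte genes were raised in part as well. Of 4 tested T and NK cell genes 2 were over 3 times the belly median, IL2RG (13.7-fold) and NKG7 (6.08-fold). The other 2, CD247 and CD2, stood at 0.96 and 2.32 times and ranked 18 and 10 of 40. The 4 summed to 21.3 scaled CPM beside 2.93 to 14 in the other 39 libraries, and IL2RG alone gave 12.3 of that sum. CD3E was 4.72-fold higher on 9 counts and ranked 5 of 40. Of 2 tested B cell genes BANK1 was 7.26-fold higher and JCHAIN stood at 0.835 times, while CD79A and PAX5 were at 0 counts. HBB of red cells rested on 1 count. The 12 genes with the highest ratio in PB8 were SERPINB2, MT1A, HSPA6, ARC, FCN1, CCL2, CHST2, FCRL5, MILR1, NRG1, IL13RA2 and DUSP5. FCN1, a lectin of monocytes, was at 37.4 scaled CPM beside 0.349, and CCL2, the chemokine that CCR2 binds, at 210 beside 2.13. HSPA6, a heat shock protein, was at 12487 beside 115. Of 8 inflammatory mediators 5 were over 3 times the belly median, with IL6 at 25.4 beside 0.472, and of 10 interferon response genes 0 were. Among the partners of the 8 genes, CSF1 stood at 226 beside 30.8 and TLR4 at 26.6 beside 4.02, while IL34 stood at 1.4 beside 1.22.

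Structural genes of PB8 were mostly level or low. Of 9 muscle fibre genes 0 were over 3 times the belly median and 0 more than 3-fold below it, and the same held for 9 endothelial genes. Of 11 fibroblast and matrix genes 4 were more than 3-fold below it, beside 737 of all 11713 genes tested. The collagens COL1A1 and COL1A2 stood at 0.106 and 0.117 times the belly median and ranked 40 of 40. In the same list 1 gene was over 3 times it, TNC, a matrix protein of injured tissue, at 275 beside 42.2 (6.52-fold), and PDGFRA, a receptor of fibroblast precursors, was 2.05-fold higher and ranked 2. Of 6 adipocyte genes 4 were more than 3-fold below the belly median, beside the same 737 of 11713, with ADIPOQ at 0.296 times. The total of PB8 was 15014787 counts and its mitochondrial share 9.31%, lower than in the other PB libraries, which ran from 9.93% to 16.2%. The part of depth, tissue make-up or handling in these values was not tested.

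**Figure D4:**
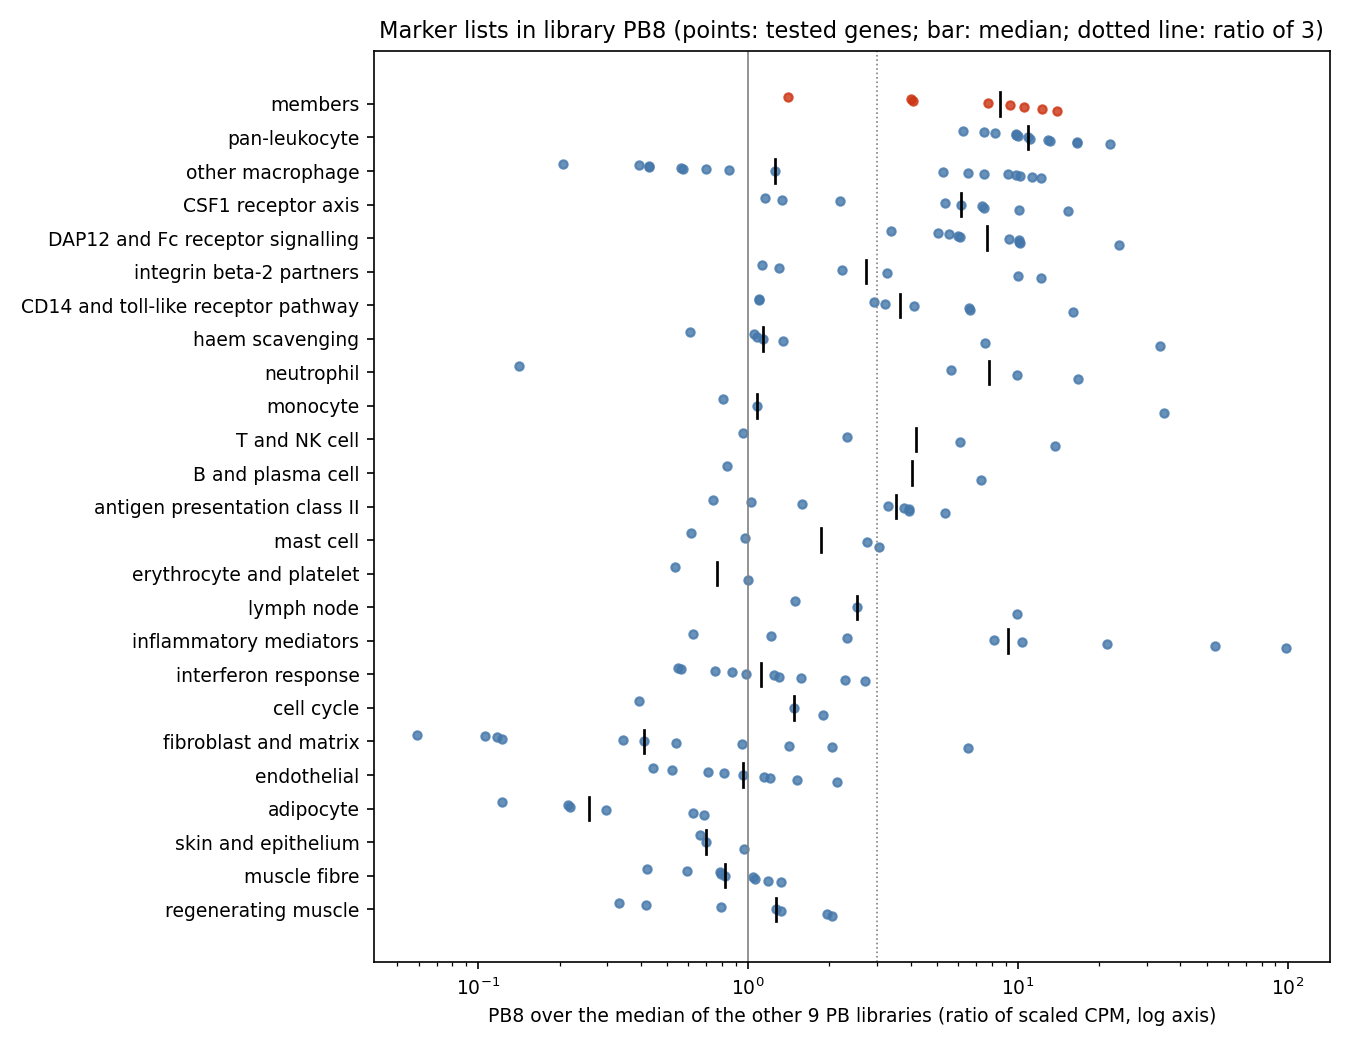
Ratio of PB8 to the median of the other 9 PB libraries for the tested genes of each list (log axis), with a bar at the median of the list and a dotted line at 3. The 13 pan-leukocyte genes and 10 DAP12 and Fc receptor genes lie wholly above 3, the macrophage list splits, and the 6 adipocyte genes tested lie below 1.

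With a limit of 2 times in place of 3, 5 libraries qualified: PB8, LDM2, TM8, PB2 and PB3. LDM2 had PTPRC, CSF1R, CD163 and MRC1 over 2 times the back median and was the highest LDM library in all 8 genes. TM8 had PTPRC, MRC1, CD14 and TYROBP over that limit, PB2 had CSF1R, ITGAM and MRC1, and PB3 had CD163, MRC1 and CD14. In these 4 libraries MRC1 was always among the raised genes, which it was not in PB8. At the low end, 4 libraries had at least 3 genes more than 3-fold below the median of their cut: LDM7, LDM8, HM7 and TM1. CD163 and MRC1 were low in all 4, and in LDM7 MRC1 rested on 9 counts. CD68 did not follow in LDM7, where it was 1.51 times the back median.

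The 8 genes rose and fell together over libraries, with CD68 the loosest. Of the 28 pairs of genes, Pearson's r of log2 scaled CPM over 40 libraries ran from 0.21 to 0.94 with a median of 0.65, and Spearman's rho from 0.19 to 0.94 with a median of 0.63. The permutation test (100000 resamples, two-sided, Benjamini-Hochberg over 28 pairs) passed for 26 pairs by r and for 24 by rho. With the mean of each cut subtracted 27 passed, with r from 0.24 to 0.94. Without PB8 this r of CD68 fell from 0.57 to 0.30 with TYROBP, from 0.55 to 0.32 with ITGAM and from 0.59 to 0.38 with CD14. It also fell with PTPRC (0.63 to 0.45), CSF1R (0.43 to 0.29) and CD163 (0.38 to 0.29), and moved from 0.24 to 0.27 with MRC1. The libraries share depth, scaling and cell make-up, and the part of each in these correlations was not tested. The resampling treated the libraries as independent, so if numbers mark pigs its p-values do not account for that.

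CD163 and MRC1 were the tightest pair. Their r was 0.94 and rho 0.94 (permutation p = 1e-05 for both, the smallest the resampling can give, adjusted p = 2e-05 and 2.8e-05). The r was 0.93 without LDM7 and LDM8, the 2 libraries farthest from the median of CD163, and 0.97 without PB8. Within cuts it was 0.98 in LDM, 0.97 in HM, 0.90 in PB and 0.95 in TM. Among all 11712 other genes tested MRC1 ranked first by rho with CD163, and CD163 first with MRC1.

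CD14 and TYROBP came next, with r of 0.88 and rho of 0.83 (permutation p = 1e-05 for both, adjusted p = 2e-05 and 2.8e-05). The r was 0.81 without PB8 and HM5, the 2 farthest in CD14, and within cuts 0.64 in LDM, 0.95 in HM, 0.94 in PB and 0.77 in TM. CD68 had r of 0.21 with MRC1 (permutation p = 0.195, adjusted p = 0.195) and rho of 0.19 (permutation p = 0.245, adjusted p = 0.245). With CD163 it had r of 0.33 (permutation p = 0.0352, adjusted p = 0.0379) and rho of 0.25 (permutation p = 0.123, adjusted p = 0.128). Within cuts CD68 and CD163 ran from -0.11 in HM over 0.20 in LDM and 0.44 in TM to 0.68 in PB, where PB8 was highest in both by scaled CPM.

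The relations of PTPRC with CD68 and TYROBP were looser without PB8. With CD68 its r was 0.45 (permutation p = 0.00423, adjusted p = 0.00474) and rho 0.29 (permutation p = 0.0722, adjusted p = 0.0791), and r fell to 0.20 without PB8 and LDM8, the 2 farthest in PTPRC. With TYROBP it was 0.74 by r and 0.67 by rho (permutation p = 1e-05 and 2e-05, adjusted p = 2e-05 and 4.31e-05), and r was 0.60 without the same 2 libraries. Within cuts the latter was 0.71 in LDM, 0.69 in HM, 0.94 in PB and 0.77 in TM.

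**Figure D5:**
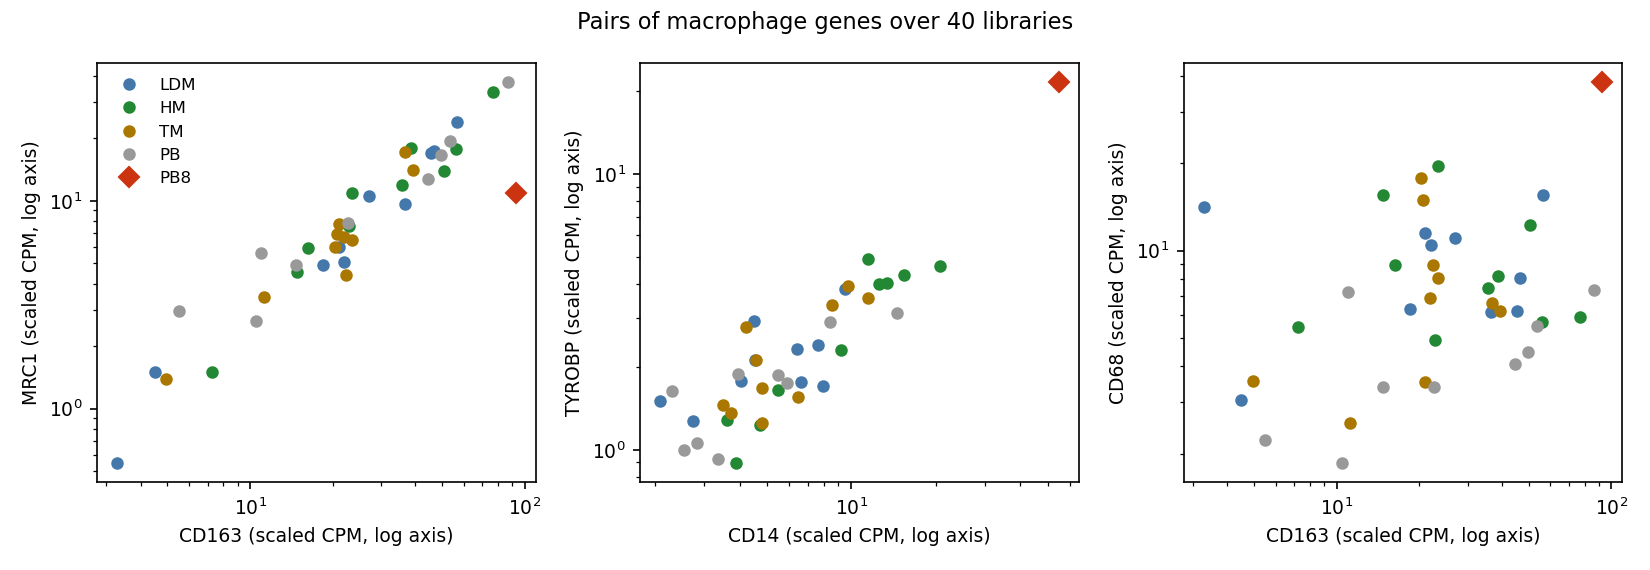
Scaled CPM of 3 pairs of genes in 40 libraries (both axes log), coloured by cut, with PB8 as a red diamond. CD163 and MRC1 lie on a line (r of 0.94) from which PB8 departs, CD14 and TYROBP rise together (r of 0.88), and CD163 and CD68 scatter (r of 0.33).

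The genes most alike over the 40 libraries were named by Spearman's rho among all genes tested, leaving out the 8, as a description with no test. For PTPRC they were DOCK10 (0.84), CYTIP (0.82), DOCK4 (0.80), PLXNC1 (0.80) and PELI1 (0.79). For CD163 they were F13A1 (0.89), MSR1 (0.85), a scavenger receptor of macrophages, SLA (0.84), TLR2 (0.83) and SRGN (0.83). For CD14 they were CD53 (0.91), SRGN (0.90), the core protein of granule proteoglycans, CYTH4 (0.89), FOLR1 (0.88) and NCKAP1L (0.88), an actin regulator of blood cells. Without PB8 these values moved by little: rho of DOCK10 with PTPRC was 0.83, of F13A1 with CD163 0.88 and of CD53 with CD14 0.90. Of the other 7 genes, MRC1 was nearest to PTPRC, at rank 105 of 11712, while CD14 ranked 7 with CD163.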

How the data were processed

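For 21280 Ensembl genes in 40 libraries, the deposited table gives the raw read count and the FPKM, per the file headers. The authors' FPKM equals the count divided by gene length and library total for 100% of values above 0 (relative tolerance 0.001) and was used only to compare levels between genes. Per the submitters' processing notes, cutadapt 1.15, HISAT2 2.0.5, HTSeq 0.9.1 and the build Sscrofa11.1 were used, whose roles and settings are not stated. Libraries were KAPA stranded, per the labels' protocols. Columns without a sample numbered 0, and rows naming no gene 0.

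The deposited table names 14883 genes, with 663 symbols added by identifier and 618 by position (at least 50% reciprocal overlap) from RefSeq tables of Sscrofa11.1, and 5116 left without one. No libraries of a cut were near-identical (lowest chi-square per gene 29.8).

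Cuts were compared in R 4.3.3 by the quasi-likelihood method of edgeR 4.0.16 (robust option): TMM scaling, filterByExpr by cut (11713 genes), 1 model over the 40 libraries in which cut was the single factor, an F test, 6 contrasts and Benjamini-Hochberg adjustment over all genes tested, threshold 0.05. Alternatives used limma 3.58.1 (voom) and DESeq2 1.42.0. The procedure was tested on simulated data. Correlations used log2 scaled CPM with a prior count of 2 and permutation tests in Python 3.11.15 with numpy 2.4.6.

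The 8 genes, the lists, the tests and the alternative without PB8 were chosen with earlier results of these data known. Named by rule were the 8 genes, the first 3 tested genes of each list, the 12 genes of at least 5 CPM with the highest ratio in a high library (medians floored at 0.1 CPM) and the 5 most alike genes of PTPRC, CD163 and CD14. Genes of lists named beside counts, and those of PB8 beyond the first 3, were chosen after their values were seen. No sequences were used here. Some genes of the lists are not reported here.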

Additional observations from a re-analysis of the deposited data

Results flagged for a closer look

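In each cut the highest and the lowest of the 10 libraries were checked for a gap to the next library that is large against the whole range of the cut (Dixon's 95% limit for 10 values). Of 32 combinations of gene and cut 8 had such a library. The limit is made for independent values of normal spread, while these values were not logged and the genes vary together. So no rate by chance is set beside this count. In PB the library was PB8 for TYROBP (gap of 0.893 of the range, at 21.6 scaled CPM), PTPRC (0.868, at 32.3), CD68 (0.849, at 38.1), CD14 (0.766, at 54.9), CSF1R (0.562, at 74.3) and ITGAM (0.516, at 30.5). MRC1 had PB3 as the far library in PB (0.516, at 37.3) and HM1 in HM (0.483, at 33.4). The 6 combinations with PB8 are values of a single library and not 6 separate observations.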

How the results depend on the processing

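Counts of called genes in edgeR were 1 among the 4 cuts, 3 in PB over LDM, 0 in PB over HM, 1 in PB over TM, 1 in TM over LDM, 0 in HM over LDM and 0 in TM over HM. In that order they were 3, 1, 2, 0, 1, 3 and 0 by limma-voom with quality weights, and 1, 1, 1, 0, 1, 3 and 0 without PB8. In both, the gene called in PB over LDM was CD68, lower in PB, and the 3 called by edgeR were lost. No filter gave 2 in PB over LDM and 0 in TM over LDM, losing CSF1R in both. Fits of a pair alone gave 2 in PB over LDM, losing ITGAM, 0 in PB over TM, 2 in TM over LDM and 2 in HM over LDM. By contrast DESeq2, RLE and upper-quartile scaling, a 1 CPM minimum in 10 libraries, PB1 left out, and mitochondrial genes left out gave the counts first listed. So did leaving out HM6, HM9, TM3 and TM7, added after the data were seen. With each library left out in turn the counts ran from 1 to 2 among the cuts, 1 to 3 in PB over LDM, 0 to 1 in PB over HM, PB over TM and TM over LDM, 0 to 3 in HM over LDM and stayed at 0 in TM over HM.

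Same-numbered libraries of different cuts correlated over 0.1 in 52 of 60 cases (lowest -0.13). Their median r was 0.19 to 0.28 in the 6 pairs of cuts, beside -0.04 to -0.03 for other numbers. In LDM and HM 8 of 10 libraries correlated best with their own number. Not every pair was over 0.1, and in no pair of cuts did every library correlate best with its own number. The labels do not tie a number to a pig, so the fit with cut as the single factor did not take the numbers as pairs. If numbers do mark pigs, its p-values do not account for that. The replicate block gave 1 gene among the cuts (CSF1R in place of PTPRC), 2 in PB over LDM (without ITGAM), 0 in PB over TM and 2 in HM over LDM (CSF1R and ITGAM). The block without PB8, added after the data were seen, gave 4 among the cuts, 1 in PB over LDM, 2 in PB over HM, 0 in PB over TM, 2 in TM over LDM and 3 in HM over LDM. CD14 in PB over HM, at 0.05, turned to -0.93 by limma-voom (adjusted p = 0.0273) and to -0.97 in the block without PB8 (adjusted p = 0.0133). In edgeR with cut as the single factor it was -0.87 without PB8 (adjusted p = 0.0521), so its sign there depended on that library. The cause was not tested. Correlations passed for 26 of 28 pairs with a prior count of 0.5 and 23 without PB8. A limit of 2 times gave 5 high libraries in place of 1. Depth limits PTPRC, MRC1 and TYROBP most, with lowest counts of 8, 9 and 12.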

Other observations

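HM5 held high values of several genes that were high in PB8, while the 8 genes were raised less. It had the highest CSF1 of all libraries, at 302 scaled CPM, and outside PB8 the highest ARC (71), FCN1 (7.44), CCL2 (41.9), NRG1 (1.21) and DUSP5 (80.1). Among the 8 genes its highest ratio to the hamstring median was 1.99, for CD14. Leukocyte genes outside the 8 were raised more in part: CSF3R was at 5.53 scaled CPM in HM5 beside a hamstring median of 0.83, and CCR2 at 4.51 beside 1.4. PB5 had the highest SERPINB2 (19.9) and HSPA6 (6029) outside PB8, and its CD163 was 0.328 times the median of all PB libraries. These genes were chosen after their values in PB8 were seen.

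Libraries that share a number did not share the low CD163 values throughout. For number 7 CD163 was at 3.28 scaled CPM in LDM7, 7.25 in HM7, 20.7 in TM7 and 10.5 in PB7. For number 8 it was at 4.5 in LDM8, 14.8 in HM8, 36.7 in TM8 and 92.8 in PB8. For number 1 it was at 4.95 in TM1 and at 46.6, 76.8 and 44.5 in LDM1, HM1 and PB1.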
